A study of Sus scrofa with 12 samples.

Results

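Pig parthenogenetic embryonic stem cell line 3 (ESC3) was compared with line 11 (ESC11), a line from an IVF (in vitro fertilised) embryo, with 3 RNA-seq libraries of each line. Of the 30012 loci in the deposited table, 20783 were annotated loci that span at least 300 bp, and 12279 of these had an FPKM (fragments per kilobase, corrected for library size) of at least 1 in at least 3 of the 6 libraries. These 12279 loci are the ones compared. The table marks them as known genes or as known genes with new splice forms. The 574 shorter loci that passed the same filter are given apart.

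The study sequenced 12 libraries in 4 groups of 3, the others being a second parthenogenetic line (ESC7) and fetal fibroblasts at passage 6 from a fetus of day 30. All ESC lines grew on feeder cells in serum-replacement medium with FGF2 at 20 ng/mL, activin A at 5 ng/mL, CH at 1.5 µM and IWR-1 at 2.5 µM, and with Y-27632 at 10 µM around passaging. Cells positive for SSEA1, a carbohydrate of the stem cell surface, were isolated on magnetic columns and their polyA RNA was sequenced from both ends, 100 bp each. Each origin is represented here by 1 line, so origin and line cannot be told apart, and the labels do not state whether the libraries of a line are separate cultures.

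A parthenogenetic embryo develops from an activated egg without sperm, so all of its chromosomes are maternal. Imprinted genes are read from only 1 parental copy. A gene read from the paternal copy is therefore without its active copy in such cells, while a gene read from the maternal copy has a pair of them. Parthenogenetic cells also carry X chromosomes of maternal origin, and female cells silence most genes of 1 X by X inactivation, a state that is often unstable in cultured stem cells.

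Depth is unknown, since the table gives FPKM without read counts. The 6 libraries had 23457 to 24100 loci above 0. Pairwise correlations of log2(FPKM + 1) across loci, which are not independent replicates, were 0.9901 to 0.9927 within ESC3, 0.992 to 0.9942 within ESC11 and 0.9763 to 0.9784 between the lines. Loci under 300 bp held 70.7% to 75.3% of the summed FPKM in ESC3 and 54.8% to 60.7% in ESC11. The 11 loci on the Y chromosome were at 0 in ESC3 and at most 0.0173 in ESC11. Core pluripotency genes marked both lines as labelled: POU5F1, the central pluripotency factor, had a mean FPKM of 739 in ESC3 and 775 in ESC11, SOX2 of 223 and 208, and NANOG of 107 and 102.

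Between the lines 156 of 12279 annotated loci were called, 1.27%, of which 67 were higher in ESC3 (0.546%) and 89 lower (0.725%). A call required a Benjamini-Hochberg adjusted p under 0.05 in limma and a difference of at least 1 in log2(FPKM + 1), the scale of all log2 differences given here unless stated otherwise. In all 156 called loci the 3 values of ESC3 lay wholly above or wholly below those of ESC11, as they did in 5384 of the 12279 loci (43.8%). The difference was 2 or more in size for 16 higher and 29 lower loci, and over all 12279 loci its median size was 0.12. A further 2996 loci had an adjusted p under 0.05 with a difference below the fold minimum. Loci left out of this set were called more often: 138 of 574 loci under 300 bp (24.0%), with 116 higher (20.2%) and 22 lower (3.83%), and 158 of 3685 longer unannotated loci (4.29%), with 93 higher (2.52%) and 65 lower (1.76%). Over all 16538 fitted loci 452 were called (2.73%), 276 of them higher (1.67%) and 176 lower (1.06%).

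**Figure D1:**
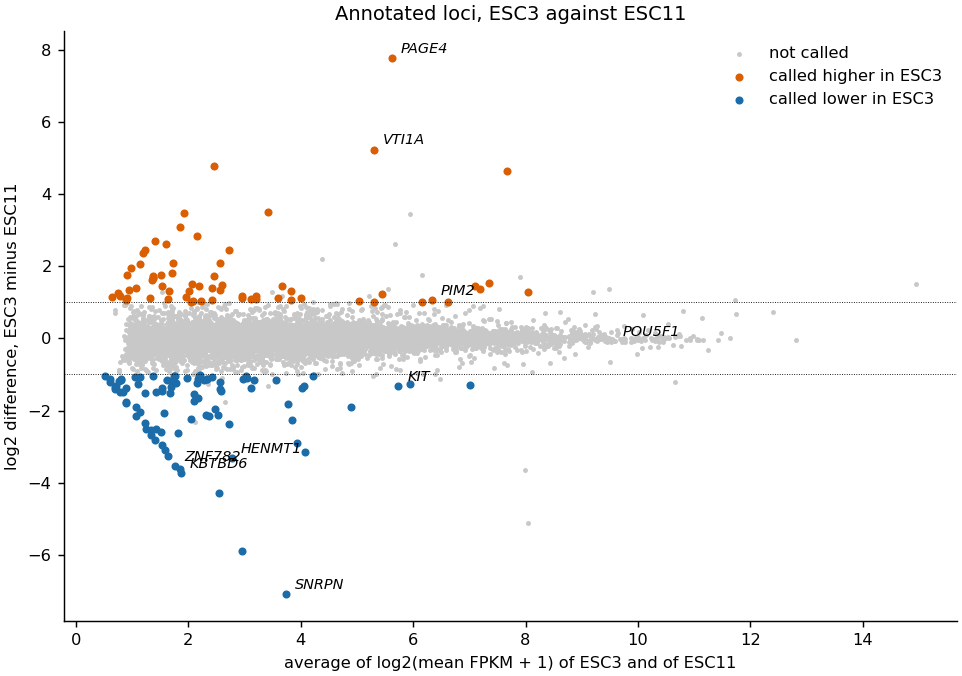
Each point is 1 of 12279 annotated loci, with the average of log2(mean FPKM + 1) of ESC3 and ESC11 on the x axis and the log2 difference on the y axis, from 3 libraries per line. Dotted lines mark the fold minimum, and PAGE4 (7.78) and SNRPN (-7.09) lie farthest from 0 in each direction.

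Genes listed as imprinted and paternally expressed were among the largest falls in ESC3. The table held 20 of 25 listed genes and 16 passed the filter. Of these 7 fell and 0 rose, beside 0.725% and 0.546% of all annotated loci. The median log2 difference of the 16 was -0.42, beside 0.01 over all annotated loci. The 7 were SNRPN, PEG10, SGCE, NAP1L5, PLAGL1, NNAT and DIRAS3. Whether each gene of this list, or of the maternal list below, is imprinted in these pig cells was not tested. In RNA from a whole population, fewer expressing cells and less RNA per cell cannot be told apart.

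SNRPN encodes a splicing protein of neurons and lies in the imprinted Prader-Willi region. On its locus (scaffold GL896379.1, 22821 to 48725, Sscrofa10.2) FPKM was 0.308, 0.0424 and 0.0776 in the ESC3 libraries and 159, 153 and 150 in those of ESC11. It was lower in ESC3 by a log2 difference of -7.09 ± 0.09 (SE, adjusted p = 1.6e-11), and the groups were far apart. PEG10, a retrotransposon-derived gene needed in the placenta, was read on a locus outside the annotation (chromosome 9, 81651789 to 81655368) and is thus not among the 12279. Its FPKM was 0.333, 0.310 and 0.0918 in ESC3 and 80.4, 79.2 and 85.0 in ESC11, a log2 difference of -6.06 ± 0.22 (adjusted p = 3.15e-08). Next to it on chromosome 9, SGCE, epsilon-sarcoglycan, was listed at 0 in every ESC3 library and had 11.1, 18.2 and 7.11 in ESC11 (81472184 to 81486496). A second SGCE locus was also listed at 0 in ESC3 and had 6.87, 8.69 and 10.9 in ESC11. The gene thus fell on both of its annotated loci.

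NAP1L5, a nucleosome assembly protein of chromosome 8, was listed at 0 in all ESC3 libraries and at 6.03, 5.93 and 6.08 in ESC11. PLAGL1, a zinc-finger regulator of growth, had 0.364, 0.461 and 0.452 in ESC3 against 7.98, 7.09 and 8.13, a difference of -2.61 ± 0.08 (adjusted p = 1.21e-08). NNAT, neuronatin, had 1.68, 2.09 and 1.55 against 11.1, 10.7 and 11.4, so that its RNA was still present in ESC3, with a mean ratio of ESC11 to ESC3 of 6.24. DIRAS3, a RAS-related growth inhibitor, was low in both lines, at 0.0405, 0.043 and 0.041 against 1.31, 1.16 and 1.33. Its difference of -1.12 passed the fold minimum as deposited but was -0.74 after quantile normalization. None of the 7 genes overlapped between the lines, which 43.8% of all annotated loci did not either.

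The same 7 genes were low in the other parthenogenetic line. In ESC7 the means were 0.126 for SNRPN, 0.313 for PEG10, 0 for SGCE, 0.0555 for NAP1L5, 0.446 for PLAGL1, 1.59 for NNAT and 0.146 for DIRAS3. None of the 7 was called between ESC3 and ESC7 in limma, and 0 had an unadjusted p under 0.05, a comparison in which 269 of 12279 annotated loci were called (2.19%), 89 higher in ESC3 (0.725%) and 180 lower (1.47%). For NNAT that difference was 0.09 ± 0.08 (SE).

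ESC3 was higher than ESC7 in 4 other paternally expressed genes, MAGEL2, MKRN3, MEST and PEG3. MAGEL2, a ubiquitin-ligase regulator of the same human imprinted region as SNRPN (chromosome 1, 158314803 to 158317091), had 19.3, 22.5 and 22.3 in ESC3 and 15.4, 15.6 and 13.6 in ESC11. It was not called between these lines (0.50 ± 0.09, adjusted p = 0.00284), although all 3 values of ESC3 were above those of ESC11. In ESC7 it had 0.463, 0.742 and 0.583, and ESC3 was higher by 3.81 ± 0.09 (adjusted p = 1.75e-09). MKRN3, a zinc-finger ubiquitin ligase on the same stretch of chromosome 1 (158354954 to 158363850), had 2.72, 2.04 and 2.92 in ESC3, 1.78, 1.73 and 2.02 in ESC11 and at most 0.0388 in ESC7. It was called higher in ESC3 than in ESC7, by 1.80.

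MEST, a hydrolase-like protein of growing tissue, had 13.7, 13.3 and 13.9 in ESC3, 13.0, 12.6 and 11.8 in ESC11 and a mean of 2.16 in ESC7. It differed by 0.12 between ESC3 and ESC11 (adjusted p = 0.0667) and by 2.21 between ESC3 and ESC7 (adjusted p = 4.69e-10). On the annotation its locus overlaps that of COPG2, a coat-protein gene, and how the counting used strand is not given in the sources used here. PEG3, a zinc-finger gene, lay between the other lines. It had 2.51, 2.61 and 3.14 in ESC3, below the 4.73, 4.46 and 4.55 of ESC11, a difference of -0.58 that did not reach the fold minimum, and above the mean of 0.406 in ESC7 by 1.41 (adjusted p = 2.7e-07). ESC3 combined SNRPN near 0 with MAGEL2, MKRN3 and MEST at or above the values of the IVF line.

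The remaining 5 listed genes did not reach the fold minimum. INPP5F, an inositol phosphatase, differed by -0.26, IMPACT, a regulator of translation, by 0.20, ZDBF2 by -0.20, SFMBT2, a Polycomb-group protein, by 0.38 and L3MBTL1, a chromatin reader, by 0.05. Small differences of INPP5F, IMPACT and ZDBF2 had an adjusted p under 0.05.

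**Figure D2:**
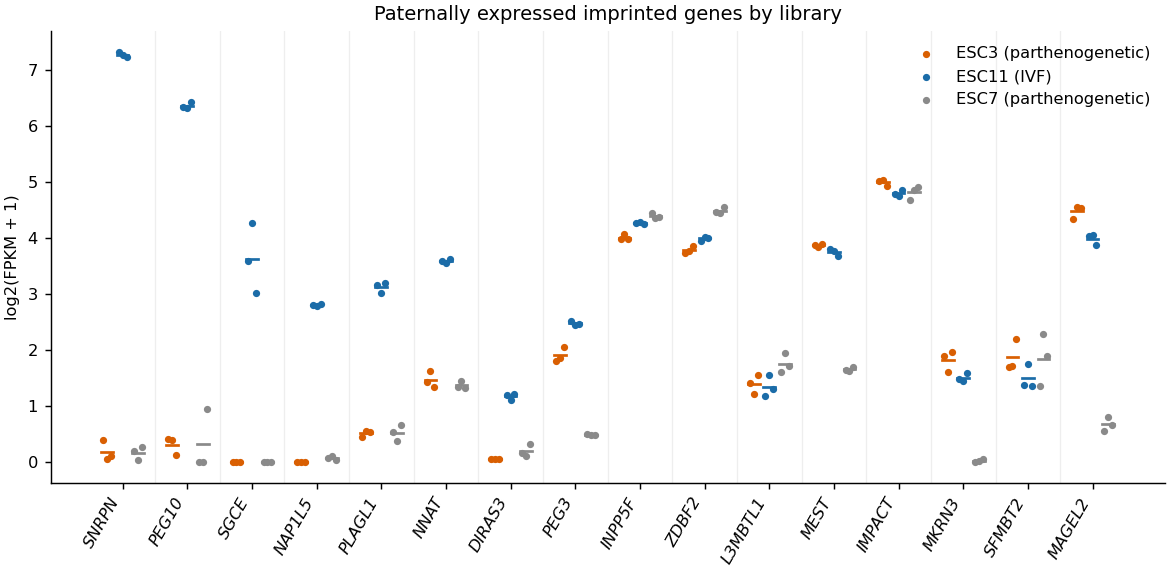
Points are single libraries of ESC3, ESC11 and ESC7 (3 each) and bars are their means, on log2(FPKM + 1), for the 16 paternally expressed genes that passed the filter, ordered by the difference between ESC3 and ESC11. From SNRPN to DIRAS3 the parthenogenetic lines lie together below ESC11, while for PEG3, MEST, MKRN3 and MAGEL2 ESC3 lies above ESC7.

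No gene listed as imprinted and maternally expressed was called higher in ESC3, a direction in which 0.546% of all annotated loci were called. The table held 18 of 25 listed genes, 13 of which passed the filter, and of these 0 rose and 1 fell in limma, with a median of -0.09 and 8 at an unadjusted p under 0.05. UBE3A, a ubiquitin ligase read from the maternal copy in neurons, had 42.9, 41.3 and 42.0 in ESC3 and 45.2, 44.5 and 44.9 in ESC11. IGF2R, the receptor that clears IGF2, had 107, 108 and 103 against 97.5, 119 and 113, and GRB10, an adaptor that dampens insulin signalling, 16.7, 15.8 and 17.1 against 14.4, 15.6 and 13.9. None of these 3 was called, and the values of IGF2R overlapped.

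PHLDA2, a placental growth restrainer, spread from 0.286 to 4.93 in ESC3 and from 0.312 to 1.99 in ESC11. CD81, a tetraspanin on a scaffold locus, had means in a ratio of 1.74 but a difference of 0.76 ± 0.32 (adjusted p = 0.112), which was -0.13 after quantile normalization. Neighbours of SGCE and PEG10 on chromosome 9 were tested too: PPP1R9A, an actin-binding scaffold protein, differed by -0.25 and TFPI2, a protease inhibitor, by -0.49. The 1 called gene was KCNQ1, a potassium channel, and it rested on an unannotated scaffold locus of 124 bp that was listed at 0 in ESC3 and at 1959, 3297 and 1079 in ESC11. No annotated KCNQ1 locus was tested. Because 1 is added to FPKM before the logarithm, a ratio of exactly 2 lies below the fold minimum, so these calls could not have shown it, and the 0 says nothing of such a change.

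PAGE4 had the largest difference of all annotated loci. It belongs to the cancer/testis genes of the X, which are normally read in reproductive tissue (X, 48522892 to 48530860). FPKM was 697, 697 and 778 in ESC3 and 1.42, 2.86 and 2.82 in ESC11, a mean ratio of 306 and a log2 difference of 7.78 ± 0.17 (adjusted p = 9.11e-10). The mean of ESC7 was 1340, and ESC3 was below it by 0.88, under the fold minimum. Of 11 listed cancer/testis genes of the X in the table, TEX11 was the other that passed the filter, with means of 1.03 and 1.17, and 6 were at 0 in all 6 libraries. The high level was thus not seen in the other listed genes of this class.

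PAGE4 lies in a stretch of the X in which many loci were read at a higher level in ESC3. This pattern was noticed after the values were seen and is described without a test, as plain ratios of mean FPKM over loci that averaged 5 or more in both lines. On the X 23 of 306 such loci (7.52%) had a log2 ratio of ESC3 to ESC11 of at least 0.8, a 1.74-fold level, beside 52 of 8100 autosomal loci (0.642%). Some genes, such as FTSJ1 and HDAC8, were split over a pair of loci, so loci here are not all separate genes. Most of the X stayed near a ratio of 1: 200 of 306 loci lay within 0.2 of a log2 ratio of 0, and the median log2 ratio was 0.05 on the X and 0.02 on the autosomes. The labels do not give the sex of ESC11, and the number of X chromosomes in each line was not tested.

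Of the 23 loci 13 lay among the 26 from SLC38A5, an amino acid transporter gene and the first X locus to reach the bound, to CCNB3 (X, 47547694 to 48916100). The ends of this stretch were set on the same values, so that 0 of the 90 loci before it reach the bound by construction. After it 10 of 190 did. The highest median over 11 consecutive loci of any chromosome lay here, 0.90 from SLC38A5 to SLC35A2. The highest on any other chromosome was 0.55, on chromosome 7 in a stretch that begins with the histone gene HIST1H1D.

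OTUD5, a deubiquitinase, had 141, 137 and 141 in ESC3 and 67.5, 67.1 and 70.3 in ESC11. PIM2, a survival kinase, had 116, 118 and 113 against 55.4, 55.2 and 53.8, and CCNB3, a cyclin of meiosis, 53.9, 55.2 and 56.2 against 26.3, 27.4 and 26.9. The libraries of each line lay close together and far from those of the other line. WDR13, a WD-repeat protein, had a ratio of 2.105 between the means. Other genes of the same stretch had ratios nearer 1: RBM3, a cold-induced RNA-binding protein (written Rbm3 in the table), had means of 384 and 377, PQBP1, a splicing regulator, 23.0 and 21.2, TIMM17B, a mitochondrial import subunit, 31.1 and 29.8, and USP27X, a deubiquitinase, 12.4 and 12.4.

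After the stretch the loci past the bound were scattered. Among them were MAGED1, an adaptor of the MAGE family, at means of 182 and 97.9, APEX2, a DNA repair nuclease, at 34.7 and 19.1, AMOT, a regulator of the Hippo pathway, at 26.1 and 14.8, and both loci of HDAC8, a histone deacetylase. ZDHHC15, a palmitoyltransferase, had the highest ratio of the 23, 2.50. Over the 23 the median ratio was 1.90, with a range of 1.76 to 2.50.

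The 23 loci were chosen by their ratio of ESC3 to ESC11, so their high values in ESC3 restate the choice. Relative to the mean of ESC11 the median ratio over them was 1.88, 1.96 and 1.90 in the 3 ESC3 libraries, and 1.03, 1.08 and 1.12 in those of ESC7. The choice did not use the ESC7 libraries, but it used the ESC11 mean that divides these ratios. The ratios of ESC7 to ESC11 given here are thus not independent of the choice. ESC7 was not at the ESC11 level in each of them: TSPAN6, a tetraspanin, had means of 87.2 in ESC3, 92.6 in ESC7 and 45.6 in ESC11 on its X locus. A TSPAN6 locus on chromosome 13 went the other way, at means of 4.61 in ESC3, 4.45 in ESC7 and 40.7 in ESC11. It was called lower in ESC3 than in ESC11, by a log2 difference of -2.89. Within the SLC38A5 to CCNB3 stretch the median ratio of ESC7 to ESC11 over the 13 loci was 1.00, although PAGE4 itself was high in ESC7.

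**Figure D3:**
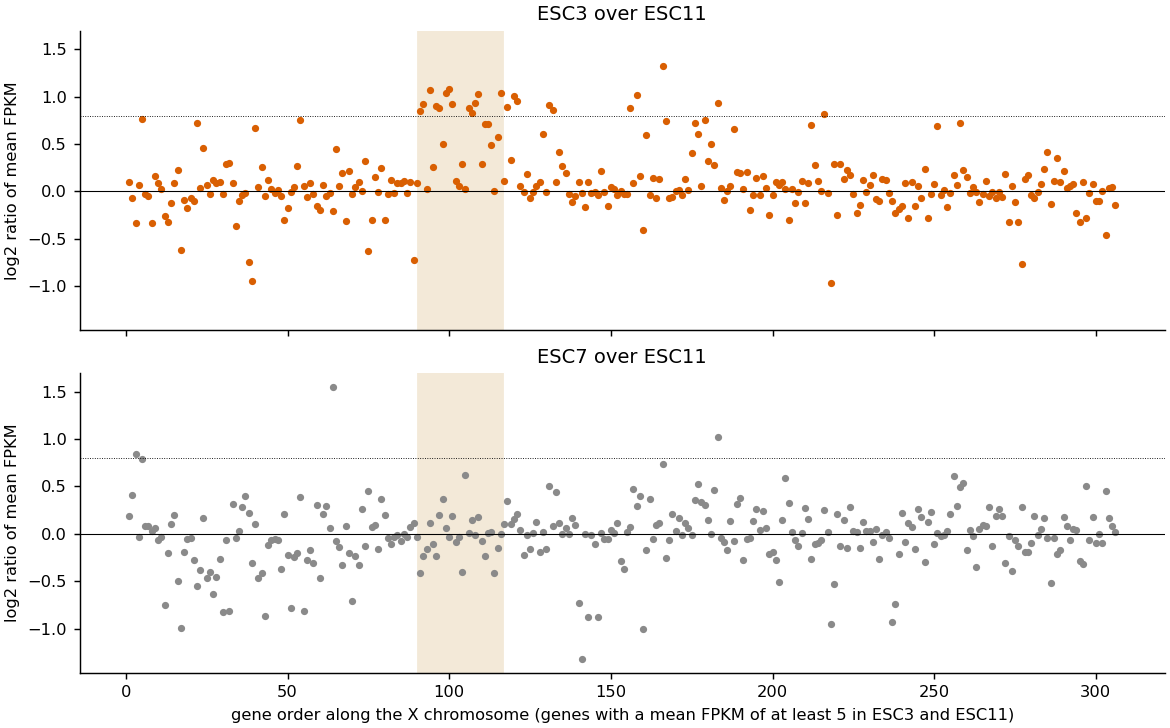
Points are the 306 X loci averaging an FPKM of 5 or more in ESC3 and ESC11, in their order along the chromosome, with the log2 ratio of mean FPKM to ESC11 for ESC3 (top) and ESC7 (bottom). The shaded stretch runs from SLC38A5 to CCNB3, where 13 of 26 loci lie above the dotted bound of 0.8 in ESC3, and loci near 0 lie among them.

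Outside the imprinted and X-linked genes, the largest rise was in VTI1A, a SNARE protein that fuses vesicles with the Golgi and endosomes. The locus (chromosome 14, 133941045 to 134028252) had 202, 274 and 245 in ESC3 and 3.84, 5.81 and 6.80 in ESC11, a mean ratio of 43.8 and a log2 difference of 5.23 ± 0.17 (adjusted p = 1.3e-08). It was also above ESC7, whose mean was 86.3, by 1.46. A longer VTI1A locus of 254280 bp that overlaps it had means of 13.6 in ESC3 and 16.0 in ESC11 and was not called. The call thus holds for the shorter locus and not for the longer one. Of 30 tested SNARE and vesicle fusion genes, VTI1A was the 1 that rose and 0 fell, beside 0.546% and 0.725% of all annotated loci. VTI1B, the closest relative of VTI1A, differed by 0.24. A locus of ZDHHC6, a palmitoyltransferase, was called higher by 1.35 (133771946 to 134046067). It contains both of these VTI1A loci, the shorter of which is on the opposite strand, so their reads may not have been told apart. The other ZDHHC6 locus differed by -0.45 and was not called.

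**Figure D4:**
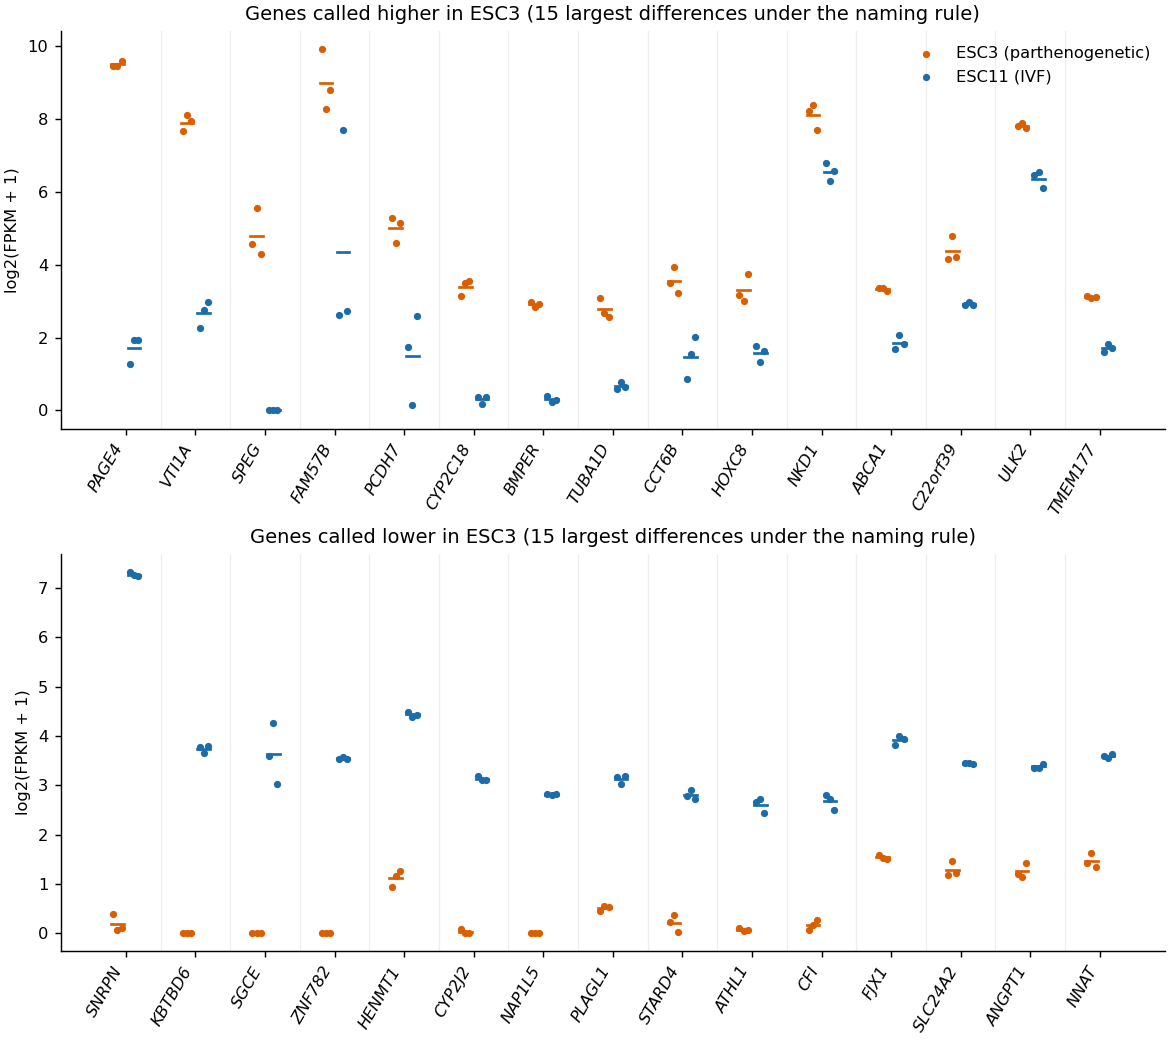
Points are single libraries (3 of ESC3 and 3 of ESC11) and bars their means on log2(FPKM + 1), for the 15 higher and 15 lower genes with the largest differences that did not overlap and averaged an FPKM of 5 or more in the higher line. FAM57B, with 1 high ESC11 library, has the widest spread, and SNRPN the largest gap among the lower genes.

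The other higher genes of the naming rule, which takes the 1 locus of a symbol with the highest mean, came from several families. Secondary loci with rises as large, such as PVRL1 (3.48), FARP1 (2.84) and PES1 (2.47), are outside it. CYP2C18, a cytochrome P450, had 7.87, 10.24 and 10.8 in ESC3 and 0.286, 0.136 and 0.302 in ESC11. BMPER, a secreted BMP-binding protein, had 6.92, 6.13 and 6.58 against 0.327, 0.169 and 0.211. Both were also high in ESC7, at means of 4.49 and 5.50. SPEG, a kinase of striated muscle, was read on an 822 bp scaffold locus at 22.6, 46.0 and 18.5 in ESC3 and listed at 0 in ESC11. PCDH7, a protocadherin, had 37.7, 23.0 and 34.4 against 2.33, 0.116 and 4.99. SPEG and PCDH7 spread widely between libraries of a line.

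TUBA1D, an alpha-tubulin, had 7.46, 5.35 and 4.96 in ESC3 against 0.505, 0.713 and 0.558, a difference of 2.11 ± 0.13 (adjusted p = 1.47e-06). Tubulin genes are near copies of each other, so reads may have been split among them. HOXC8, which patterns the trunk, had 7.91, 7.04 and 12.5 against 2.42, 1.54 and 2.09 and was the 1 of 16 listed HOX genes in the table that passed the filter. ABCA1, which exports cholesterol, rose on both of its loci, by 1.49 and 1.47. CCT6B, a testis form of a chaperonin subunit, rose on 2 of its 3 annotated loci, by 2.08 and 1.80, and the remaining locus was not called. ULK2, an autophagy kinase, rose by 1.45 on a scaffold locus but differed by 0.42 and 0.09 on its other loci. C22orf39 and TMEM177, a mitochondrial protein, rose by 1.46 and 1.40.

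A pair of these calls rested on few libraries. FAM57B, a membrane protein linked to lipid synthesis, had 964, 309 and 445 in ESC3 and 5.14, 205 and 5.70 in ESC11, a difference of 4.65 ± 1.32 (adjusted p = 0.0279). Its adjusted p was 0.0504 to 0.0975 when any of 5 libraries was left out, and 0.00173 without ESC11 library 2. NKD1, an inhibitor of WNT signalling, had 297, 333 and 207 against 109, 78.0 and 93.5 (1.55 ± 0.42, adjusted p = 0.0226). Leaving out ESC3 library 1 or 2, or ESC11 library 2 or 3, gave an adjusted p of 0.0638, 0.0738, 0.0689 and 0.0576. A second NKD1 locus, at means of 12.8 and 11.9, was not called. The last gene inside the naming rule was TMEM177 at 1.3966 and the first outside it TMEM167A at 1.3779, of 32 eligible higher loci.

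Beside the imprinted genes, several of the lower genes named by the rule, which takes 1 locus per symbol, had values at or near 0 in ESC3. A pair of IFITM1 loci outside that rule differed by more, by -5.89 and -4.30. KBTBD6, a ubiquitin-ligase adaptor, was listed at 0 in ESC3 and ESC7 and had 12.8, 11.6 and 12.9 in ESC11. ZNF782, a zinc-finger gene, was listed at 0 in ESC3 too, and had 10.5, 10.96 and 10.5 in ESC11 and a mean of 11.8 in ESC7. CYP2J2, an epoxygenase, had 0.057, 0 and 0 in ESC3 against 8.05, 7.65 and 7.60. The table holds 2 annotated loci of ZNF782 and 6 of CYP2J2, and only the ones given here were called. Of the 89 lower loci 13 were listed at 0 in every ESC3 library, and 5 of the 67 higher loci in every ESC11 library.

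HENMT1, the methyltransferase that protects the ends of piRNAs, had 0.902, 1.22 and 1.41 in ESC3 against 21.4, 19.9 and 20.6, a difference of -3.32 ± 0.09 (adjusted p = 2.58e-09), and fell on its other locus as well, by 2.25. STARD4, a cholesterol carrier, had 0.176, 0.294 and 0.0181 against 5.88, 6.46 and 5.58. CFI, complement factor I, had 0.0407, 0.117 and 0.197 against 5.98, 5.61 and 4.64. ATHL1, a glycosidase, had at most 0.0707 in ESC3 and at least 4.42 in ESC11, but its other locus, at means of 2.26 and 2.29, was not called. In ESC7 each of these genes was at a mean of 6.53 or more, above ESC3.

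FJX1, a secreted four-jointed homologue, had 1.99, 1.89 and 1.85 in ESC3 against 13.0, 14.9 and 14.4, and ESC7 had a mean of 1.99. SLC24A2, a sodium and calcium exchanger, had 1.27, 1.74 and 1.33 against 9.91, 9.89 and 9.78. ANGPT1, the ligand of the TIE2 receptor, had 1.31, 1.20 and 1.67 against 9.25, 9.21 and 9.81. ANGPT1 was the 1 of these 3 also called lower than in ESC7. The naming rule ended at NNAT, at a size of 2.1259, with PAMR1 the first outside it at 2.0667, of 40 eligible lower loci.

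Some called loci lay side by side. Of the 156, 49 lay within 1 Mb of another called the same way, in 20 runs. How many of any 156 annotated loci lie this close was not measured, so these counts do not show clustering. The X run held WDR13, OTUD5, PIM2, PAGE4 and CCNB3. On chromosome 2, TRIM44, FJX1 and PAMR1 were all lower in ESC3, by 1.10, 2.37 and 2.07 in size, between positions 27633860 and 27954885. The FJX1 locus lies almost wholly within that of PAMR1, so these calls may share reads. In ESC7 TRIM44 had a mean of 0.434, below the 1.60 to 1.75 of ESC3. The protocadherins PCDHAC2, PCDHB5 and PCDHB15, adhesion proteins of a chromosome 2 cluster, rose by 1.33, 1.13 and 1.01. Several runs were a gene and its own further loci, among them ABCA1, CCT6B, CYP2C18 and SGCE.

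Several called loci carry symbols of immune genes. They were picked from the lower calls after their values were seen, so no direction of a group can be read from them. IFITM1, an interferon-induced membrane protein that blocks virus entry, was called lower on 4 loci. The one with the largest difference was listed at 0 in ESC3 and had 45.0, 65.2 and 67.4 in ESC11, and another had 30.9, 40.9 and 45.5 against 94.0, 97.7 and 91.6. IFITM genes are near-identical copies, so the share of each is uncertain. SLA-8 and TMP-SLA-2, class I molecules of the pig major histocompatibility complex, differed by -1.67 and -1.10, and 1 of the loci of TAP, a peptide transporter, by -1.47. USP18, which restrains interferon signalling, differed by -1.39. Of 9 tested genes of the interferon response list 0 were called in limma, beside 1.27% of all annotated loci. Their median was -0.05, and 5 had an unadjusted p under 0.05 in limma. Means in ESC7 lay on either side of ESC11: they were higher for SLA-8 (13.2), TMP-SLA-2 (23.1) and USP18 (15.6), and lower for that TAP locus (0.669, beside 1.87 in ESC11) and the IFITM1 locus listed at 0 in ESC3 (46.2, beside 59.2 in ESC11).

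Of 321 tested genes in 29 lists, 6 rose and 10 fell (4.98%, beside 1.27% of all annotated loci and 2.73% of all loci fitted). The imprinted lists held 8 of these 16 calls, and of 292 genes in the other lists 8 were called (2.74%). Among the 8 imprinted calls PEG10 and KCNQ1 were read on unannotated loci, KCNQ1 on one under 300 bp, a class in which 24.0% were called. None of 16 core pluripotency, 8 naive and 12 primed epiblast genes was called in limma, with medians of 0.08, -0.04 and 0.20, and 4, 4 and 10 of them had an unadjusted p under 0.05. LIN28A, an RNA-binding protein of early cells, had means of 718 and 709, DNMT3B, a DNA methyltransferase, of 906 and 966, and OTX2, a primed epiblast factor, of 72.2 and 61.2. In the same way 0 of 13 epithelial, 23 cell cycle, 26 respiratory chain, 18 glycolysis and 21 DNA methylation and chromatin genes were called, with 6, 11, 5, 8 and 9 at an unadjusted p under 0.05. The lists of BMP signalling (12 tested), the IGF axis (13) and immediate early and heat shock genes (13) held 0 calls too, with 3, 8 and 9 at that unadjusted p and medians of 0.08, -0.04 and -0.30. The markers of other lineages rarely passed the filter, with 4 trophectoderm, 3 mesendoderm and endoderm, 4 neural and 1 blood and endothelial gene tested, 0 called and 3, 0, 1 and 1 at an unadjusted p under 0.05. The blood and endothelial gene, CD34, was at -0.99, just under the fold minimum, with 1.86, 2.09 and 2.03 in ESC3 against 4.50, 4.55 and 5.83. KRT7, a keratin of trophectoderm read on a 117 bp unannotated locus, was at -2.96 ± 2.97 (adjusted p = 0.521), with 0, 7825 and 24207 in ESC3 and 3066 to 6428 in ESC11.

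Of 14 FGF and MEK feedback genes, which report on FGF signalling, 0 were called in limma, beside 1.27% of all annotated loci. But their median was -0.33, and in limma 9 had an unadjusted p under 0.05 and 8 an adjusted p under 0.05. Over all annotated loci 3152 of 12279 had an adjusted p under 0.05 in limma, and no list was tested as a set. The number at an unadjusted p was not counted over all loci, so the unadjusted counts of this and the other lists have no background beside them. DUSP5, a phosphatase of ERK, had means of 31.0 and 55.4, SPRY4, a feedback inhibitor, 13.0 and 21.3, while SPRY2 had 52.5 and 50.4. None reached the fold minimum.

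The listed genes that were called outside the imprinted, X-linked and SNARE lists were few. KIT, the stem cell factor receptor of germ cells, had 33.1, 31.6 and 33.3 in ESC3 against 84.0, 80.3 and 85.2 and fell by 1.32. FUT4, a fucosyltransferase that can make the SSEA1 epitope, had 0.362, 0.333 and 0.452 against 3.11, 2.91 and 2.88 and fell by 1.52, while FUT9, which also makes it, had means of 3.47 and 4.23. LEFTY2, a NODAL inhibitor, had 101, 111 and 87.1 against 52.4, 59.0 and 37.1, a difference of 1.01 ± 0.15 (adjusted p = 0.000786). Its difference was below the fold minimum without ESC3 library 1 (0.9995), ESC3 library 2 (0.94) or ESC11 library 3 (0.82). TNFRSF10B, a death receptor, had 3.93, 3.90 and 2.66 against 0.547, 0.491 and 0.284, and was higher still in ESC7, at a mean of 9.90. These values are of a 1438 bp locus, the only one of its 4 annotated loci that was called.

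Feeder and fibroblast markers held no call. The table held 21 of 22 listed genes. In limma 0 of the 12 tested were called, beside 1.27% of all annotated loci, with 6 at an unadjusted p under 0.05. The median difference of the 12 was 0.16, from -0.83 for SPARC to 0.97 for TWIST2. Summed over all 21 listed genes in the table, tested or not, FPKM was 275 to 305 in ESC3, 341 to 372 in ESC11 and at least 25501 in fibroblasts. Of these 21, 8 averaged under 1 in both lines, among them LUM, DCN, POSTN and TWIST1, at most 0.11 in either line. Others were higher, such as SPARC, a matrix protein, with means of 128 and 229. Their part in the differences above was not tested.

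The direct comparison of the parthenogenetic lines tests which differences from ESC11 also part ESC3 from ESC7. It shares the ESC3 libraries with the comparison above, on whose values these loci were chosen, so the counts are a description; of all annotated loci 0.725% were called higher and 1.47% lower than in ESC7. Of the 67 loci higher than in ESC11, 24 were also called higher than in ESC7, 2 lower and 41 not called. Of the 89 lower loci, 43 were also called lower than in ESC7, 1 higher and 45 not called. PVRL1, a nectin adhesion protein, had 11.8, 11.2 and 11.9 on a 3462 bp locus in ESC3, at most 0.164 in ESC11 and a mean of 0.0206 in ESC7, while its longer locus was at means of 15.1 and 11.8. ZNF782, HENMT1, CYP2J2, STARD4, ATHL1, CFI and ANGPT1 were called lower in ESC3 than in each of the other lines. SNRPN, NAP1L5, PLAGL1, NNAT, KBTBD6 and FJX1 differed from ESC7 by 0.10 or less in size and were not called.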

How the data were processed

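The authors deposited 1 table of FPKM values per locus and library. Tools named in the submitters' processing notes are Cufflinks 2.1.1 and STAR 2.4.0b, with the build Sscrofa10.2 and no role for each. The table has no counts, so depth and counting intervals are unknown; strand use is not given in the sources used here. All 12 columns matched a labelled library.

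Values were used as log2(FPKM + 1). All 16538 loci reaching an FPKM of 1 in 3 or more of the 6 libraries, of every status and span, were fitted together with limma 3.58.1 in R 4.3.3 (4 group means, 12 libraries, variances following the mean), and p-values were two-sided and adjusted over all of them. The p-values reflect only how far libraries of a line differ, and this spread may be technical. Of the annotated loci of at least 300 bp in the table, 10933 had an identifier in the gene name table, and 10008 of these the same symbol; 2746 of the 12279 tested share a symbol with another. A symbol was represented by its annotated locus of at least 300 bp with the highest mean, or by another locus only where it had none.

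Named genes were the 15 largest called differences in each direction, without overlap and averaging an FPKM of 5 or more in the higher line, SNRPN, PEG10, PAGE4 and VTI1A, tested imprinted genes, and up to 4 called genes of each other list. Others were named after their values were seen. The genes compared and the lists were chosen with earlier results of these data known. On simulated data of 16538 loci for ESC3 against ESC11, with 200 changed by a log2 difference of 1.5 or more, limma recovered 100% and made 2 false calls. The changed loci were annotated loci well above the FPKM filter, with normal noise of the fitted spread. Recovery of smaller differences, or at low FPKM, was therefore not shown. Alternatives were other pseudocounts, filters, scalings, variance settings, libraries in the fit, thresholds, summed loci, a replicate term and leaving out each library. Python 3.11.15, pandas 2.3.3, numpy 2.4.6 and matplotlib 3.10.9 made tables and plots.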

Additional observations from a re-analysis of the deposited data

Results flagged for a closer look

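For 16 of the 37 named genes called between ESC3 and ESC11, the parthenogenetic lines also differed from each other by a call in limma, which is the test that their differences from ESC11 are unequal. Of all annotated loci 269 of 12279 were called between these lines (2.19%). The 37 were chosen on ESC3 values that both comparisons share, so the counts here are a description. The values here are log2 differences of ESC3 minus ESC7. ESC3 was higher in VTI1A by 1.46, FAM57B by 3.68, TUBA1D by 2.02, CCT6B by 1.22, NKD1 by 1.65, C22orf39 by 1.12 and LEFTY2 by 2.53. It was lower in ZNF782 at -3.68, HENMT1 at -3.64, CYP2J2 at -3.25, STARD4 at -2.90, ATHL1 at -2.84, CFI at -2.77 and ANGPT1 at -1.71. KCNQ1, on its 124 bp unannotated locus, was at -13.27. For these 15 genes ESC3 lay outside the range of the means of ESC7 and ESC11. TNFRSF10B, at -1.27, was the exception, with ESC7 farther from ESC11 than ESC3 was.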

How the results depend on the processing

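The counts of called loci moved with the pseudocount and the filter. With a pseudocount of 0.1 the calls between ESC3 and ESC11 were 112 higher and 147 lower, with a pseudocount of 5 they were 21 and 32, and with an FPKM of at least 5 in 3 libraries 40 and 50. Between ESC3 and ESC7 the same settings gave 157 and 307, 33 and 64, and 59 and 97, where 89 and 180 were called as deposited. Listed genes called higher fell from 6 to 3 with a pseudocount of 5. Leaving out 1 library gave 61 to 70 higher and 90 to 99 lower loci against ESC11, 89 to 93 and 177 to 195 against ESC7, and 4 to 6 higher and 10 to 11 lower listed genes. Of the 156 calls 140 to 151 were still called the same way without 1 library, 141 after quantile normalization and 153 after median-ratio scaling. The median log2(FPKM + 1) difference over annotated loci was 0.0405 on the X and 0.0078 on the autosomes as deposited. On the X it was 0.0238 after median-ratio scaling. On the autosomes it was -0.0084 with that scaling and 0.0182 as a plain ratio of means. The number of X loci past the bound was 12 with a mean FPKM of at least 20, and 20 to 25 without 1 library, alternatives added after the data were seen.

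Of 37 called named genes 27 kept their call under every alternative that gave a value. FAM57B had an adjusted p of 0.0708 with only the 6 libraries compared and 0.0562 with the 9 ESC libraries. With a pseudocount of 5, TUBA1D, HOXC8, ABCA1, TMEM177, DIRAS3, FUT4, LEFTY2 and TNFRSF10B were below the fold minimum. LEFTY2 was also below it after quantile normalization (0.94) and median-ratio scaling (0.997). Uncalled differences changed sign for CD81 (-0.1298) and NAP1L4 (-0.0217) after quantile normalization, for L3MBTL1 without ESC3 library 3 (-0.0311) or ESC11 library 1 (its values without 1 library ran from -0.0423 to 0.1513), and for IGF2R without ESC11 library 2 (from -0.1256 to 0.0141 without 1 library). The causes were not tested.

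Replicate numbers paired the libraries only weakly: deviations of same-numbered libraries correlated at 0.0372, 0.0397 and 0.0506. Those of libraries with different numbers correlated at -0.0442 to 0.00483, so each library correlated best with its own number. With the number as a replicate block, 69 loci were called higher and 89 lower against ESC11, 89 and 178 against ESC7, and 156 of 156 calls were kept. Without read counts, depth limits at low FPKM could not be set.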
